A study of Phaseolus vulgaris with 24 samples.

Results

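The 100 genes described here were those whose mean transcript level on a log2 scale stood higher after salt in leaf and root of both bean genotypes. They were chosen by their measured salt response from the 27213 genes of the deposited tables. The count of a gene in a library was divided by the library total and scaled to CPM (counts per 1000000). The mean of log2(CPM + 1) over 3 control libraries was subtracted from the mean over 3 salt libraries in each of 4 responses, and the 100 genes with the largest minimum of the 4 differences were kept. The 4 responses were those of Ispir leaf (IL), TR43477 leaf (TL), Ispir root (IR) and TR43477 root (TR). The salt differences of these genes are therefore a description, and a difference on the log2(CPM + 1) scale understates the change of a gene with few counts.

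The study grew Ispir, a common bean (Phaseolus vulgaris L.) genotype named salt-tolerant, and TR43477, named susceptible, in hydroponics. Salt plants received NaCl at 50 mM on day 1, 100 mM on day 2 and 125 mM on day 3 and stayed at 125 mM for 3 days, while control plants received none. RNA of leaf and of root was sequenced in 24 libraries, 3 for each of the 8 groups of genotype, tissue and treatment, taken from 3 plants per group. By the study's methods leaf and root were taken from 3 plants of a condition, and the labels do not say which libraries share a plant, so that leaf and root libraries of 1 genotype and treatment may not be independent. The genotypes differ by their whole background, so that a difference between them cannot be tied to salt tolerance by these libraries alone.

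Sodium chloride lowers the water potential around the root and loads tissues with sodium and chloride ions. Plants meet the water deficit with the hormone abscisic acid, with compatible solutes such as sugars and amino acids, and with protective proteins of the late embryogenesis abundant (LEA) class, which are best known from drying seeds. A change found in leaf and in root of unlike genotypes is the kind looked for when a response common to the whole plant is sought.

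Library totals ran from 12163655 to 26416766 counts, so that 3 counts, the limit that a count of 0 allows, stood at 0.114 to 0.247 CPM for counting error. Replicates of a group correlated across genes at r = 0.888 to 0.992, and TR43477 leaf control replicate 3 was in the lowest pair. The summed level of 56 photosynthesis genes listed by the study, used as leaf markers, had medians of 48542 CPM in control and 62936 CPM in salt libraries of Ispir leaf, 73440 and 12293 CPM in TR43477 leaf, 355 and 363 CPM in Ispir root, and 278 and 166 CPM in TR43477 root. None of the 56 was among the 100 genes (0 members). The fall of that sum in TR43477 leaf moved with the leaf response of that genotype, and its part in the values below was not tested. In whole tissue, fewer cells of a type and less RNA per cell cannot be told apart.

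The deposited tables name genes by identifier only, and 0 of the identifiers matched the RefSeq gene table at hand, so that roles are given for the 10 members that the study itself annotated. The minimum difference was 2.93 for the first gene, Phvul.009G168000, and had a median of 1.11. The last genes inside the limit were Phvul.002G180400 at 0.81 and Phvul.005G024100 at 0.805, and the first outside were Phvul.007G145300 at 0.80 and Phvul.003G135400 at 0.80. Of the genes of the tables, 61 had all 4 differences at 1 or more, and 11 members had all 4 at 2 or more.

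**Figure D1:**
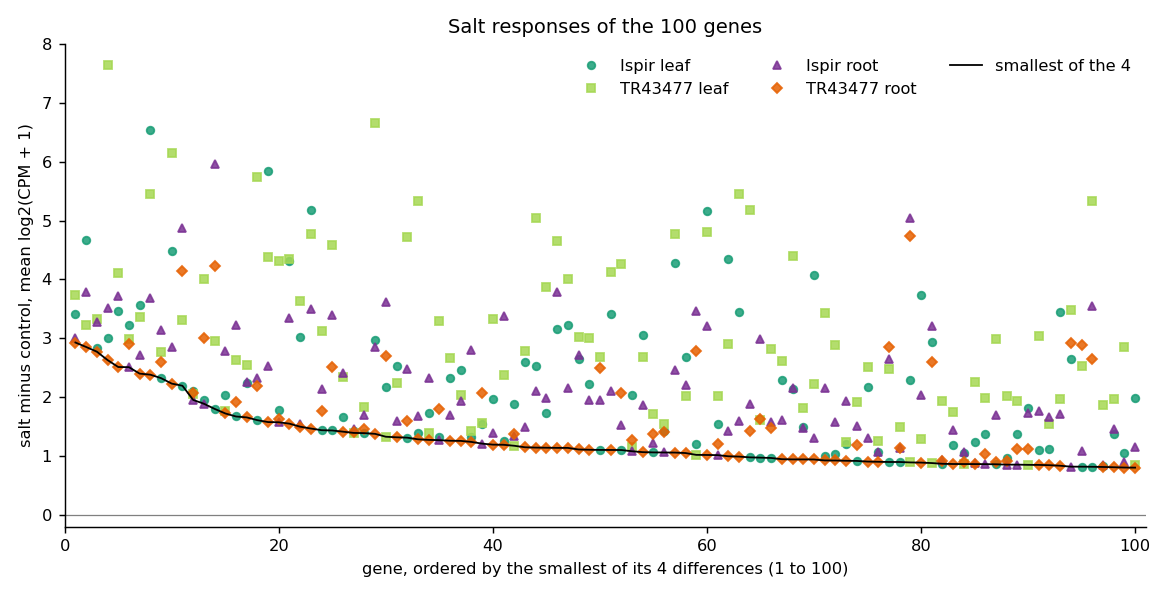
Salt minus control difference of mean log2(CPM + 1) for each of the 100 genes in Ispir leaf, TR43477 leaf, Ispir root and TR43477 root, ordered by the smallest of the 4, which the black line follows from 2.93 to 0.805. TR43477 root held the smallest difference for 57 genes and TR43477 leaf the largest for 59.

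The differences were smallest in TR43477 root and largest in TR43477 leaf. The median difference was 1.85 in Ispir leaf and 2.68 in TR43477 leaf, and 1.94 and 1.28 in the roots of Ispir and TR43477, while the medians over all genes with a count were -0.08, 0.11, 0.00 and 0.07. The SD of the differences over all genes was 0.86, 1.01, 0.61 and 0.49 in the same order. Differences of 2 or more were held by 415, 773, 240 and 127 genes. The same extremes, TR43477 leaf and TR43477 root, thus held over all genes and are not particular to the members. TR43477 root gave the smallest of the 4 differences for 57 genes, Ispir leaf for 22, Ispir root for 13 and TR43477 leaf for 8. TR43477 leaf gave the largest for 59, Ispir leaf for 20, Ispir root for 18 and TR43477 root for 3. The largest single differences were 7.64 for Phvul.001G205900 in TL, 6.54 for Phvul.010G107400 in IL, 5.96 for the LEA3 family gene Phvul.003G096700 in IR and 4.74 for Phvul.009G027600 in TR.

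Single libraries were compared beside the means. Every salt library stood above every control library for 89 members in each of the leaf responses, 97 in IR and 95 in TR, beside 16.5%, 30.3%, 17.9% and 16.9% of all genes with a count in those libraries. It did so in all 4 responses for 76 members, beside 1.12% of all genes, in 3 responses for 19, in 2 for 4 and in 1 for 1 member. These shares follow from the choice of the genes, and nothing is read from them. The study's limits for a called gene were a log2 fold change beyond 1 in either direction and an adjusted p below 0.01. In edgeR's quasi-likelihood test 49 members passed them in Ispir leaf, 46 in TR43477 leaf, 70 in Ispir root and 13 in TR43477 root, all higher, beside 2.66%, 2.62%, 2.57% and 0.19% of all genes tested. The genes were chosen on these same contrasts, so nothing is read from these counts either.

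The count in TR43477 root hung on a single library. Without TR43477 root control replicate 3 the members called there were 50, with 510 genes called in all in place of 108, and without any other 1 of the 6 libraries they were 0 to 5, with 4 to 79 genes called in all. This control library held the highest of the 3 control values for 60 of the 100 members, beside 34.2% of all genes, and stood at least 1 log2 unit above both other controls for 13 members, beside 2.42% of all genes. The summed level of the 100 genes was 3851 CPM in it, against 2756 and 2681 CPM in the other controls. Leaving it out moved the median difference in TR from 1.28 to 1.41. The other counts hung on their libraries as well, and the calls over all genes fell with them. In Ispir leaf, with 1073 genes called in all, the members called were 26 without control replicate 2 (249 genes called) and 32, 19 and 27 without salt replicates 1, 2 and 3 (559, 91 and 156 genes). In TR43477 leaf, with 1153 genes, they were 4 without any 1 salt library (25 to 32 genes). In Ispir root, with 952 genes, they were 22, 23 and 41 without control replicates 1, 2 and 3 (137, 157 and 483 genes).

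The 100 genes together took several times more of the counts after salt. Their summed level was 4834 ± 978 CPM in control and 16863 ± 2031 CPM in salt libraries of Ispir leaf, and 4945 ± 999 and 23589 ± 3852 CPM in TR43477 leaf (mean ± SD, n = 3). In root it was 2666 ± 73.6 and 11083 ± 1749 CPM in Ispir, and 3096 ± 655 and 9943 ± 89.9 CPM in TR43477. No salt library reached down to a control library of its tissue and genotype in this sum. The highest mean of the 8 groups was in TR43477 leaf under salt for 56 members, in Ispir leaf under salt for 18, in Ispir root under salt for 16 and in TR43477 root under salt for 10. The genes were chosen for higher means after salt in every response, so the rise of these sums is a description.

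**Figure D2:**
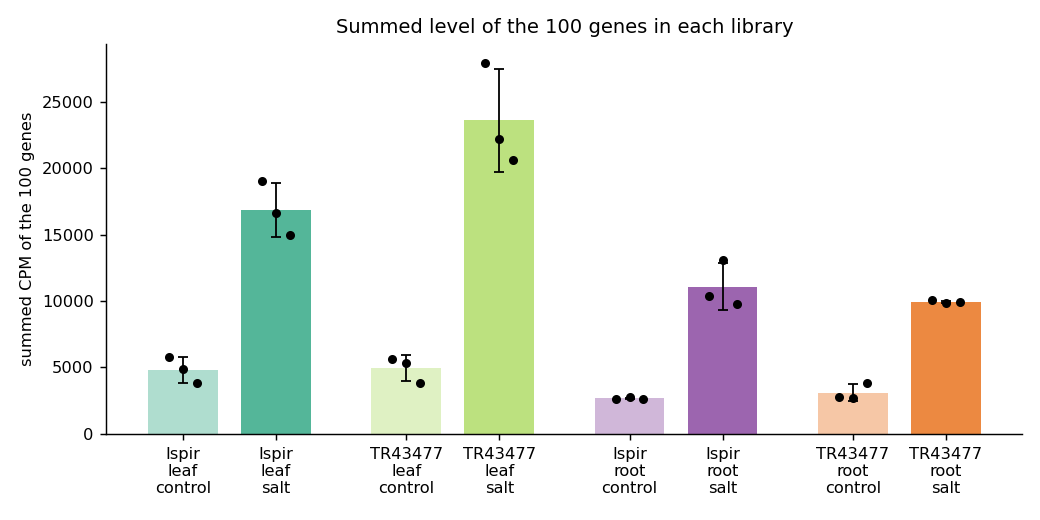
Summed CPM of the 100 genes in the control (pale) and salt (dark) libraries of each genotype and tissue. Points are libraries, bars the mean and error bars the SD of 3 libraries, and the salt means run from 9943 CPM in TR43477 root to 23589 CPM in TR43477 leaf. The genes were chosen for higher means after salt.

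Before salt the members covered a wide range of levels. Their median over genes of the mean control level was 7.35 CPM in Ispir leaf and 8.65 CPM in TR43477 leaf, 5.84 CPM in Ispir root and 6.10 CPM in TR43477 root, close to the medians of all genes with a count in leaf, 7.66 and 7.80 CPM, and under those in root, 11.2 and 10.9 CPM. Between 13 and 24 members averaged under 1 CPM in a control group, and 5 to 10 averaged at least 100 CPM. Under salt, 43 members averaged at least 100 CPM in TR43477 leaf, 30 in Ispir leaf, 23 in Ispir root and 15 in TR43477 root. Phvul.001G114100 was the most abundant member of leaf, with 1219 to 2840 CPM in Ispir leaf controls and 4711 to 5507 CPM under salt.

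At the other end, 4 members had no count in all 3 libraries of at least 1 control group. One of them, Phvul.002G027900, which the study also chose for qRT-PCR, had 0 CPM in all root controls of both genotypes. Under salt it stood at 1.07, 11.03 and 2.59 CPM in Ispir root and at 0.715, 0.871 and 1.22 CPM in TR43477 root. Against a limit of 3 counts over the control group, pooled salt levels were at least 68.7-fold higher in Ispir root and at least 14.2-fold higher in TR43477 root. The value for Ispir root hung on salt replicate 2 and was at least 24.98-fold without it, a value computed after the data were seen. In leaf its controls held 1 count in each genotype, and its salt libraries ran from 1.63 to 10.5 CPM in Ispir and from 12.7 to 27.3 CPM in TR43477.

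Carbon metabolism was represented by a sucrose gene and by an inhibitor protein. Phvul.001G209600 (chromosome 1, bases 46619643 to 46625826, genome v2.1) was placed by the study at the reversible step between sucrose and fructose. It stood at 34.4, 36.7 and 37.9 CPM in Ispir leaf controls and at 189, 136 and 190 CPM under salt, and at 28.9, 18.9 and 14.7 CPM and 218, 203 and 202 CPM in TR43477 leaf. In root it stood at 7.58, 7.38 and 11.4 CPM in Ispir controls and at 219, 415 and 246 CPM under salt, and at 2.63, 5.08 and 14.3 CPM and 103, 162 and 109 CPM in TR43477. Control and salt libraries did not overlap in any of the 4, and the salt levels of the 4 groups lay within 103 to 415 CPM although leaf controls stood above the root controls.

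The response of that gene was larger in Ispir root than in Ispir leaf. Its response in Ispir leaf was 2.71 lower on the log2 scale than in Ispir root (difference of responses -2.71, SE 0.37, adjusted p = 0.00144, edgeR's quasi-likelihood interaction test over 12 libraries and all 24244 genes), and it was called so under every other setting tried. Its control level was higher in leaf than in root of Ispir by 2.36 log2 (SE 0.23, adjusted p = 2.16e-04, edgeR). The 5 other genes that the study placed at sucrose steps were not members: their differences ran in both directions, as with Phvul.001G191600, at -0.11 (IL), 0.32 (TL), 3.13 (IR) and 5.43 (TR).

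Phvul.003G117200 (chromosome 3, bases 29789577 to 29790334) was annotated as cell wall / vacuolar inhibitor of fructosidase 1, a class of small proteins that bind invertases, the enzymes that split sucrose. Its control libraries held 0.0747 to 2.29 CPM, and its salt libraries 1.48 to 3.12 CPM in Ispir leaf, 4.59 to 8.30 CPM in TR43477 leaf, 13.1 to 18.4 CPM in Ispir root and 2.88 to 6.93 CPM in TR43477 root. The salt libraries were above the controls in all 4, by the widest margin in Ispir root, with a difference of 3.38. The neighbouring Phvul.003G117100, annotated as related to the same inhibitor, was not a member because of TR43477 root, where its difference was 0.52, beside 1.11 in IL, 3.97 in TL and 2.96 in IR.

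Amino acid and organic acid metabolism gave 3 annotated members. Phvul.006G069300 (chromosome 6, bases 18114352 to 18118758) is named asparagine synthase-1 in the study, an enzyme that moves the amide nitrogen of glutamine onto aspartate. It stood at 431, 578 and 223 CPM in Ispir leaf controls and at 2391, 1841 and 725 CPM under salt. In Ispir root the values were 497, 499 and 478 CPM and then 2017, 2186 and 1378 CPM, and in TR43477 root 117, 229 and 204 CPM and then 1688, 1292 and 1313 CPM. These 3 pairs of groups did not overlap.

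In TR43477 leaf the asparagine synthase gene did overlap. Its control libraries held 1293, 22.5 and 3.76 CPM, and its salt libraries 1269, 779 and 599 CPM, so that control replicate 1 was above every salt library while the other controls were far below. The difference of 4.001 in TL therefore rested on 2 of 3 controls. Of the 3 genes that the study linked to asparagine, edgeR and DESeq2 each called 0 higher in TR43477 leaf. The study likewise left TR43477 leaf out of the tissues where it found the asparagine synthase-1 gene upregulated. Both other genes that the study linked to asparagine had differences below 0 in every response, at -0.24 to -1.15 for Phvul.001G252200 and -0.73 to -2.97 for Phvul.008G259900.

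Phvul.009G132900 (chromosome 9, bases 20076334 to 20082294) was annotated as 3-methyl-2-oxobutanoate dehydrogenase, which takes part in the breakdown of the carbon skeletons of branched-chain amino acids. Its TR43477 leaf controls held 0, 0 and 0.209 CPM, 3 counts in all, and its salt libraries 49.4, 28.8 and 28.3 CPM. In Ispir leaf the controls were already at 7.23, 21.2 and 4.33 CPM and the salt libraries at 100, 54.0 and 32.9 CPM. Salt levels of the genotypes overlapped, and control levels did not.

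The fitted response of that gene was smaller in Ispir leaf than in TR43477 leaf (difference of responses -5.97, SE 1.18, adjusted p = 0.00797, edgeR). With 3 counts in the TR43477 leaf controls this size depends on the small count that the fit adds, and it ran from -9.40 to -5.03 over the other settings. The gene lost its call in 11 of 18 of them, among which were 10 of 12 fits without 1 library, with adjusted p up to 0.0224. In TR43477 root its controls were 6.23, 4.06 and 65.7 CPM, with replicate 3 above every salt library (23.6, 44.9 and 22.4 CPM). The fitted salt response there was near 0 (log2 0.15, SE 0.96, adjusted p = 0.962, edgeR). Membership thus rested on the mean of log2(CPM + 1), with a difference of 1.15 in TR.

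The oxoglutarate dehydrogenase gene Phvul.007G011400 (chromosome 7, bases 811835 to 817152), which the study placed at the citric acid cycle step from 2-oxoglutarate to succinate, was low and even before salt. Its 12 control libraries held 0.478 to 3.44 CPM. Its salt libraries held 12.1 to 32.2 CPM in Ispir leaf, 26.2 to 30.5 CPM in TR43477 leaf, 12.8 to 23.8 CPM in Ispir root and 1.96 to 4.73 CPM in TR43477 root. The differences were thus 2.65, 3.02 and 2.72 in the first 3 and 1.11 in TR43477 root. Of the 8 genes that the study's tables tied to 2-oxo acids, these 2 dehydrogenase genes were members, and the study chose that list on these samples.

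Protective proteins were represented by Phvul.003G096700 (chromosome 3, bases 15370674 to 15371685), of the LEA3 family. It was near 0 in most controls and highest after salt in root: 58.5, 174 and 120 CPM in Ispir root and 46.4, 66.3 and 101.8 CPM in TR43477 root, against 1.68 to 3.86 CPM in Ispir leaf and 7.62 to 18.3 CPM in TR43477 leaf. The Ispir root controls held 0.525, 1.41 and 0.427 CPM. The TR43477 root controls held 0.0751, 0 and 45.0 CPM, with replicate 3 close to the lowest salt library. The fitted salt response in TR43477 root was not called (log2 2.15, SE 1.57, adjusted p = 0.551, edgeR). A second LEA-related gene of the study's tables, Phvul.007G225200, had differences of 1.88 (IL), 6.98 (TL), 3.08 (IR) and 0.21 (TR) and was not a member.

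Phvul.003G209000 (chromosome 3, bases 43496858 to 43497733), labelled EMB by the study with no further description, had the reverse tissue pattern. Its salt libraries held 115, 150 and 87.5 CPM in Ispir leaf and 268, 182 and 130 CPM in TR43477 leaf, but 2.30, 8.64 and 5.62 CPM in Ispir root and 2.53, 7.23 and 2.14 CPM in TR43477 root. Leaf controls held 0.612 to 1.83 CPM in Ispir and 5.43 to 15.5 CPM in TR43477. Its control level was higher in leaf than in root of Ispir (log2 5.34, SE 0.97, adjusted p = 0.00316, edgeR), a size that depends on the small added count because the root controls held 1 count in all. The call was lost without any 1 of the 3 Ispir root control libraries, with adjusted p of 0.0117 to 0.0156.

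Among the remaining annotated members, Phvul.010G133300 (chromosome 10, bases 41539292 to 41543858) is related to subunit A3 of nuclear transcription factor Y, a complex that binds CCAAT sequences in promoters. It stood at 2.91 to 4.80 CPM in Ispir leaf controls and 9.95 to 11.5 CPM under salt, at 5.81 to 15.5 and 22.0 to 24.0 CPM in TR43477 leaf, at 28.5 to 30.0 and 101.3 to 133 CPM in Ispir root, and at 33.6 to 53.1 and 76.4 to 84.2 CPM in TR43477 root. No groups overlapped, and root levels were above leaf levels in both treatments. In controls of Ispir the gene was lower in leaf than in root by a log2 value of -2.51 (SE 0.24, adjusted p = 1.81e-04, edgeR).

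Phvul.006G205400 (chromosome 6, bases 30053153 to 30056339) was annotated as a 2-nitropropane dioxygenase-like protein, a class of flavoenzymes that oxidise nitroalkanes. It stood at 13.9, 19.3 and 36.0 CPM in TR43477 leaf controls and at 286, 230 and 214 CPM under salt, but in Ispir leaf only at 53.3, 26.0 and 18.9 CPM and then at 104, 60.3 and 34.7 CPM, where the groups overlapped. In TR43477 root it stood at 57.7, 57.0 and 42.4 CPM and then at 80.2, 131 and 93.6 CPM. The response of TR43477 was larger in leaf than in root (difference of responses 2.27, SE 0.44, adjusted p = 0.00992, edgeR), and this call was lost in 10 of 12 fits without 1 library, with adjusted p up to 0.0319.

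The gene annotated as pollen allergen, Phvul.002G083600 (chromosome 2, bases 13380201 to 13382320), had control libraries that disagreed. TR43477 leaf controls held 0.523, 0.840 and 17.7 CPM and salt libraries 28.1, 8.49 and 18.8 CPM, and Ispir leaf controls held 1.25, 0.281 and 8.24 CPM and salt libraries 32.6, 52.9 and 69.7 CPM. The groups overlapped in TR43477 leaf and did not in Ispir leaf. In root the controls ran from 4.43 to 6.72 CPM in TR43477 and from 5.18 to 6.38 CPM in Ispir, and the salt libraries from 8.77 to 18.7 CPM and from 13.8 to 18.2 CPM.

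**Figure D3:**
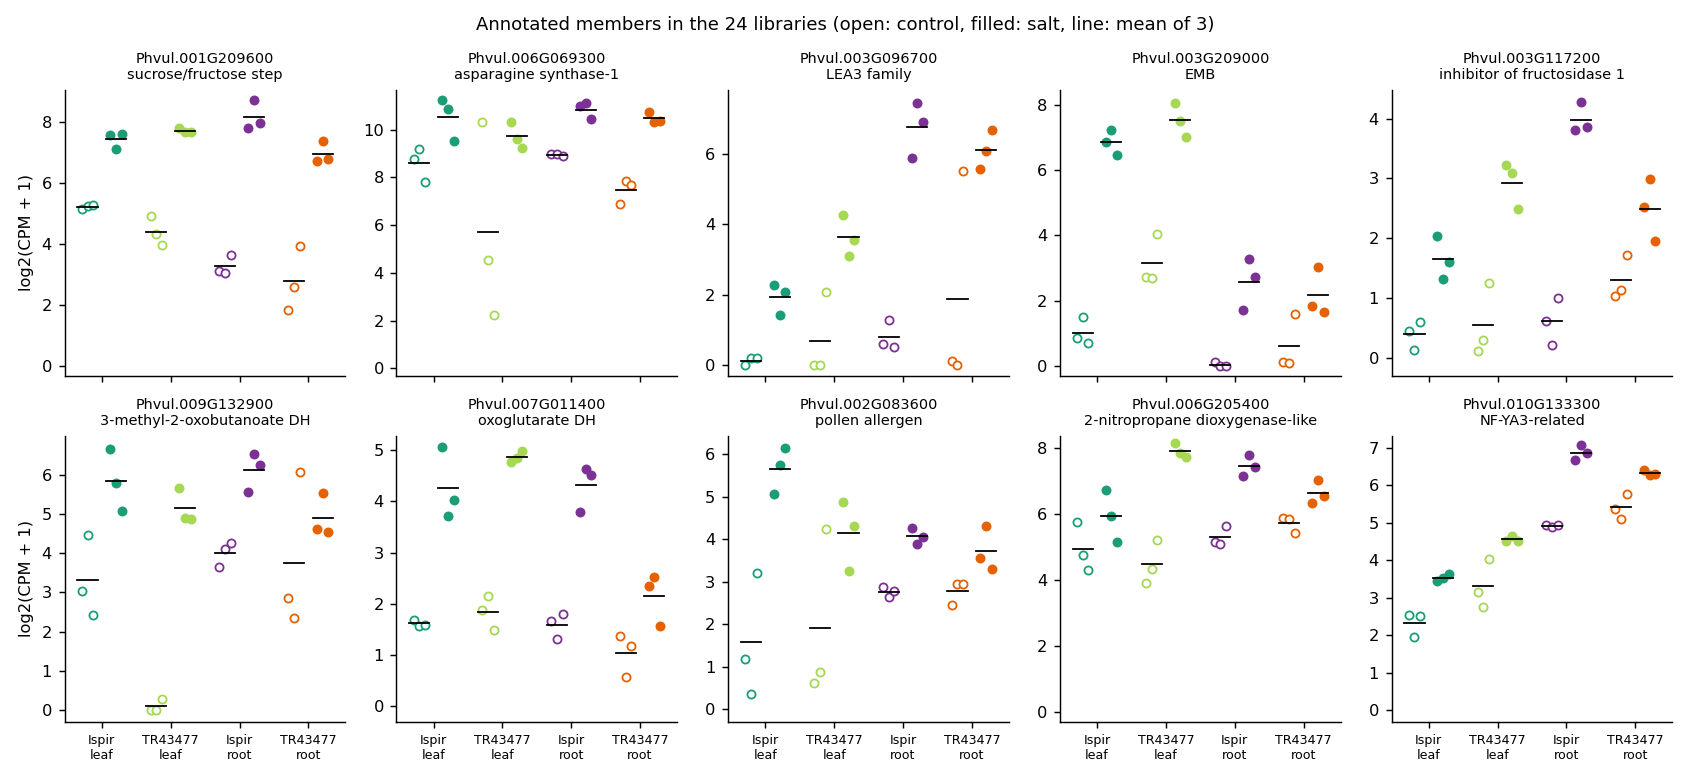
Level of the 10 annotated members as log2(CPM + 1) in the 24 libraries, open circles for control, filled circles for salt and a line for the mean of 3. The LEA3 family gene reached 174 CPM in Ispir root and 18.3 CPM or less in leaf, and the EMB gene 268 CPM in TR43477 leaf and 8.64 CPM or less in root. Single control libraries stood apart for some genes in TR43477 leaf and root and in Ispir leaf.

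Other groups of stress genes that the study annotated were absent from the 100. The words heat shock or heat stress stand in its annotations of 6 genes, among them the transcription factor gene Phvul.002G155300. All 6 were called higher in Ispir leaf and all 6 in Ispir root, 2 in TR43477 leaf and 0 in TR43477 root (edgeR), and the study chose them on these samples. Their differences in TR43477 root ran from -0.10 to 0.76, under the 0.805 of the last member. In TR43477 root 1 of the 6 had an unadjusted p under 0.05, and DESeq2 called 0. Phvul.008G112700, which the study counts with the heat shock family under the annotation alpha crystallins, lay outside this word list and was no member either, at -0.99 (IL), -0.98 (TL), 1.55 (IR) and 0.41 (TR). The heat shock 70 kDa gene Phvul.003G154800 had differences of 5.42 (IL), 6.44 (TL), 3.01 (IR) and 0.76 (TR). Of the 2 abscisic acid receptor genes PYL4 and PYL5 (Phvul.010G065400 and Phvul.008G220600), both were called lower in Ispir root and in TR43477 root, 1 in Ispir leaf and 0 in TR43477 leaf, where 1 had an unadjusted p under 0.05 and DESeq2 called 1.

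How even the 4 responses were differed widely among the members. The gap between a gene's largest and smallest difference had a median of 1.91 and ran from 0.07 to 5.28, with 6 genes under 0.5 and 24 above 3. Phvul.007G256500 was the most even, with differences of 1.43 (IL), 1.39 (TL), 1.46 (IR) and 1.40 (TR), although it stood at 101.7 to 147 CPM in TR43477 leaf controls and 3.68 to 7.705 CPM in TR43477 root controls. Phvul.008G061900 followed with 2.102, 2.06, 1.95 and 2.07. Phvul.007G259400 was the least even, at 2.97 (IL), 6.66 (TL), 2.85 (IR) and 1.38 (TR).

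On the log2(CPM + 1) scale, which uses total counts, the leaf response was larger in TR43477 than in Ispir for 72 of the 100 members, and the root response was larger in Ispir for 80. Both held for 56 members. In the edgeR fits, which use TMM factors, the leaf response was larger in TR43477 for 49 members and in Ispir for 51, so that the lean in leaf was absent on that scale, and the root response was larger in Ispir for 82. In leaf the median fitted difference of responses (Ispir minus TR43477) was 0.01 over the members and -0.03 over all genes with TMM, and -0.34 and -0.36 with total counts alone. The choice of genes used both responses of each tissue, so these counts and medians are a description. The interaction of genotype and salt was tested gene by gene over the 12 libraries of a tissue. In leaf 5 members were called, all with the smaller response in Ispir, beside 5.14% of the 23306 genes tested in either direction and 2.04% in this direction. Over all genes 1199 were called. Without 1 library the count of members was 2 in 6 of the 12 fits, with Ispir control replicate 2, Ispir salt replicate 2 or 3 or any TR43477 salt library left out (291 to 406 genes called in all). It was 3 without Ispir control replicate 1 or 3 (805 and 1200 genes) and 11 without TR43477 leaf control replicate 1 (1534 genes). In root edgeR called 0 members and 0% of 24210 genes, with 36 members at an unadjusted p under 0.05, and DESeq2 called 3 members. No share of all genes under the unadjusted limit was computed, so nothing is read from the 36. The median fitted difference in root was 0.79 over the members and 0.01 over all genes, and nothing is read from it, since TR43477 root gave the smallest of the 4 differences on which 57 of the members were chosen. The share called in leaf in either direction was near that of all genes. By direction 0 members were called with the larger response in Ispir, where 723 of all genes were, against 476 with the smaller. The choice of genes used both leaf responses, so nothing is read from this split.

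**Figure D4:**
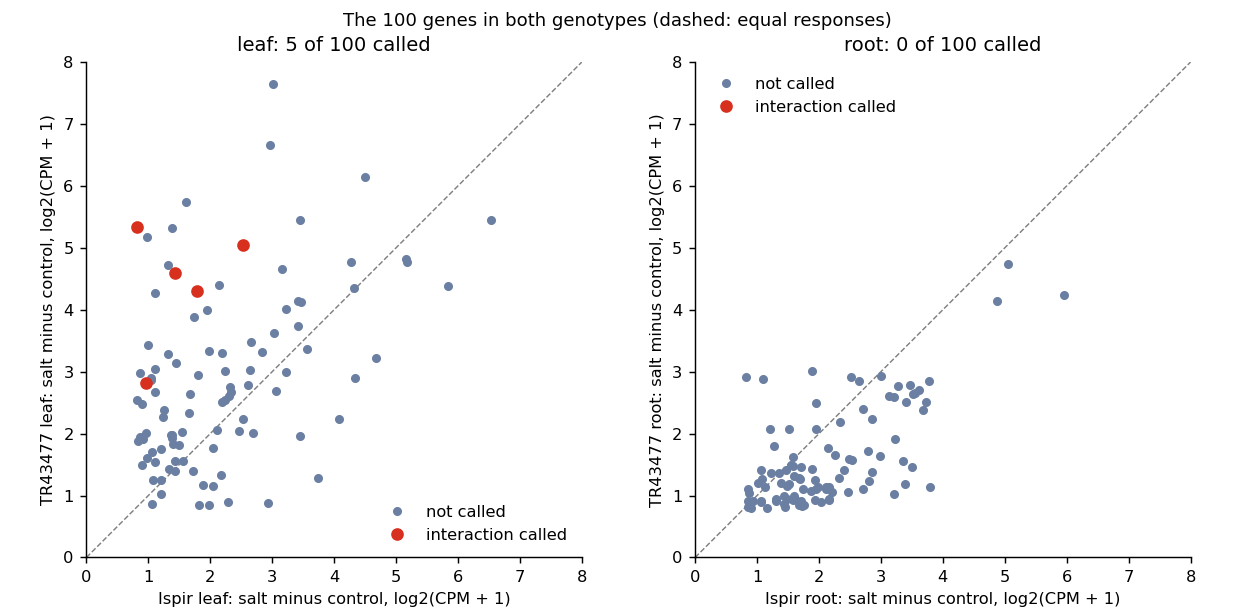
Salt minus control difference in log2(CPM + 1) of the 100 genes in Ispir (x axis) and TR43477 (y axis), for leaf (left) and root (right), with the dashed line at equal responses. In leaf 72 genes lie above the line on this total-count scale, where the fit with TMM factors had 49, and the 5 called for the interaction (red) are among them. In root 80 genes lie below the line with none called.

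Phvul.006G061500 had the clearest genotype difference in leaf. Its Ispir leaf controls held 47.2, 64.8 and 34.4 CPM and its salt libraries 136, 75.5 and 57.9 CPM, which overlapped. Its TR43477 leaf controls held 4.93, 6.57 and 7.51 CPM and its salt libraries 345, 274 and 265 CPM, with a wide space between. The response was smaller in Ispir (difference of responses -4.34, SE 0.44, adjusted p = 5.68e-04, edgeR), and this held under every other setting, at -4.71 to -4.07.

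The control level of that gene lay on the opposite side. It was higher in Ispir than in TR43477 control leaf (log2 2.81, SE 0.32, adjusted p = 0.00983, edgeR), but the call was lost in all 6 fits without 1 library, with adjusted p of 0.0163 to 0.0509. In Ispir its leaf response was also smaller than its root response (difference of responses -2.79, SE 0.43, adjusted p = 0.00246, edgeR), where the root went from 7.43, 8.40 and 7.89 CPM to 74.9, 139 and 107 CPM. Phvul.009G212300 was the next in leaf, with TR43477 libraries going from 3.06, 2.45 and 2.30 CPM to 79.9, 65.6 and 65.9 CPM and Ispir libraries from 3.47, 3.14 and 3.67 CPM to 16.0, 13.6 and 13.1 CPM. Its controls were alike, and its response was smaller in Ispir (difference of responses -2.37, SE 0.25, adjusted p = 6.61e-04, edgeR).

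Leaf and root responses of the same genotype were compared in the same way, with the libraries of the tissues taken as independent although they may share plants. On the log2(CPM + 1) scale the leaf response was the larger one in both genotypes for 45 members and the smaller one in both for 11. Taken singly, it was larger than the root response for 50 members in Ispir and 84 in TR43477. In the edgeR fits it was larger for 48 and 73. The choice of genes used these responses and no share over all genes was computed, so these counts are a description. In Ispir 5 members were called, 1 with the larger response in leaf and 4 in root, beside 4.55% of all genes tested, or 1.74% and 2.81% for the directions. In TR43477 9 members were called, 8 with the larger response in leaf and 1 in root, beside 3.42% of all genes, or 1.70% and 1.72% for the directions. The tests contrast responses on which the members were chosen, and TR43477 root gave the smallest of the 4 differences for 57 members. Nothing is therefore read from these counts of calls. With the replicate number as a block the counts were 9 in Ispir and 6 in TR43477, with 1197 and 342 genes called in all in place of 1104 and 836. The members' median difference of leaf and root responses was -0.06 in Ispir and 0.78 in TR43477, beside -0.08 and -0.11 over all genes, a description because the choice used these responses. The count in Ispir fell to 3 without leaf salt replicate 2 or 3 or root control replicate 1 (483, 553 and 479 genes called in all). The count in TR43477 was 5 without any 1 salt library of leaf or root (314 to 362 genes) and 14 without leaf control replicate 1 or 3 (1327 and 1419 genes).

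In Ispir the single called member with the larger leaf response was Phvul.003G042000. It went from 3.76, 4.13 and 1.79 CPM to 66.8, 115 and 70.9 CPM in leaf and from 23.7, 20.4 and 19.8 CPM to 51.4, 76.7 and 51.9 CPM in root (difference of responses 3.34, SE 0.44, adjusted p = 0.0012, edgeR). Leaf controls stood under root controls, and the salt libraries of leaf and root overlapped. In TR43477 the smallest adjusted p belonged to Phvul.009G257000, which went from 1.79, 1.53 and 2.78 CPM to 156, 131 and 106 CPM in leaf and from 13.2, 15.8 and 12.1 CPM to 27.6, 25.2 and 31.9 CPM in root (difference of responses 4.78, SE 0.32, adjusted p = 8.22e-05, edgeR).

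Phvul.009G212300 was called in TR43477 too, with the larger response in leaf (difference of responses 2.901, SE 0.30, adjusted p = 5.69e-04, edgeR). The one member called with the larger response in root of TR43477 was Phvul.009G027600. It went from 0.525, 0.776 and 1.87 CPM to 40.9, 53.1 and 64.8 CPM in root, and from 81.4, 47.4 and 28.9 CPM to 96.1, 108 and 70.9 CPM in leaf, where control replicate 1 overlapped the salt libraries (difference of responses -5.03, SE 0.64, adjusted p = 0.00132, edgeR). The same gene was called in the same direction in Ispir (difference of responses -3.15, SE 0.54, adjusted p = 0.00382, edgeR).

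Levels of the controls entered the choice of genes as the subtracted term. In control leaf 1 of 99 tested members was called between Ispir and TR43477, beside 0.535% of genes and 0.268% higher in Ispir, and in control root 2 of 99, beside 2.07% and 0.99%. Both root members were higher in Ispir. Phvul.003G237400 stood at 53.1, 62.1 and 35.6 CPM in Ispir and at 14.4, 14.3 and 17.2 CPM in TR43477 control root (log2 1.65, SE 0.21, adjusted p = 0.00625, edgeR). Phvul.004G162100 stood at 13.6, 12.8 and 12.4 CPM and at 5.18, 2.81 and 3.39 CPM (log2 1.72, SE 0.25, adjusted p = 0.00989, edgeR). The first call was lost in 4 and the second in 5 of 6 fits without 1 library, with adjusted p up to 0.0374 and 0.0549. In leaf 34 members and in root 29 had an unadjusted p under 0.05. The share of all genes under that limit was not computed, so nothing is read from these counts.

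Between control leaf and root, 41 of 99 tested members were called in Ispir, 28 higher and 13 lower in leaf, beside 39.8% of all genes, 16.7% higher and 23.2% lower. In TR43477 29 of 100 members were called, 23 higher and 6 lower in leaf, beside 22.6% of all genes, 11.7% higher and 10.9% lower. With total counts alone as the scale the split in TR43477 was 19 higher and 11 lower. With the replicate number as a block 38 members were called in Ispir and 18 in TR43477, with 7960 and 2745 genes called in all in place of 9490 and 5404. Leaving out root control replicate 1, 2 or 3 of TR43477 left 12, 10 or 18 members called (2740, 2594 and 3245 genes), and leaving out leaf control replicate 3 left 36 (6888 genes). The share of members called in Ispir in either direction was near that of all genes. By direction more of the called members were higher than lower in leaf, where more of all called genes were lower. Control levels entered the choice of genes, so nothing is read from this lean.

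The gene with the largest log2 value among the named ones was Phvul.010G066500, at 332, 237 and 126 CPM in Ispir control leaf and 1.05, 0.942 and 0.569 CPM in Ispir control root (log2 8.38, SE 0.48, adjusted p = 2.94e-05, edgeR). Phvul.001G065400 was also higher in Ispir control leaf (log2 4.69, SE 0.26, adjusted p = 2.59e-05). In TR43477 controls Phvul.002G122800 (log2 5.44, SE 0.31, adjusted p = 1.59e-04) and Phvul.007G256500 (log2 4.73, SE 0.39, adjusted p = 3.13e-04) were higher in leaf, all by edgeR.

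On the root side, Phvul.008G113900 stood at 0.0747, 0.993 and 1.67 CPM in TR43477 control leaf and at 328, 296 and 538 CPM in control root (log2 -8.19, SE 0.94, adjusted p = 0.00105, edgeR). After salt it reached 2859, 2110 and 2434 CPM in TR43477 root and 1341, 1470 and 1439 CPM in Ispir root, but 1.997 to 6.48 CPM in leaf of either genotype. The gene was thus higher after salt in both tissues, from control levels that lay far apart. Phvul.005G034600 was lower in leaf than in root in controls of Ispir (log2 -1.69, SE 0.16, adjusted p = 1.64e-04) and of TR43477 (log2 -3.02, SE 0.32, adjusted p = 8.03e-04, both edgeR).

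The tissue order mostly held after salt. Of the 100 members, 62 had the higher mean in leaf among Ispir controls and 56 under salt, and 78 kept their order. In TR43477, 52 had the higher mean in leaf among controls and 76 under salt, and 76 kept their order. All of the 24 members whose order turned in TR43477 turned towards leaf, since 52 were higher in leaf in both treatments and 24 higher in root in both. The order after salt is the control level plus the differences on which the genes were chosen, and no share over all genes was computed. These counts are therefore a description, and nothing is read from them.

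Among replicates, single libraries held the highest value for many members at once. Ispir root salt replicate 2 held the highest of the 3 salt values for 86 members, beside 37.9% of all genes with a count. TR43477 leaf salt replicate 1 did so for 84 members, beside 28.2% of all genes. The median member stood 0.62 log2 units above the mean of the other libraries in the first case and 0.36 in the second, where the median over all genes was 0.00 in both. In the other 6 groups the library most often highest held 37 to 60 members. The sum over the members was highest in these libraries, at 13072 CPM in Ispir root and 27946 CPM in TR43477 leaf. The choice of genes used the means of these same libraries, which single high libraries raise, so these shares are a description and nothing is read from them.

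**Figure D5:**
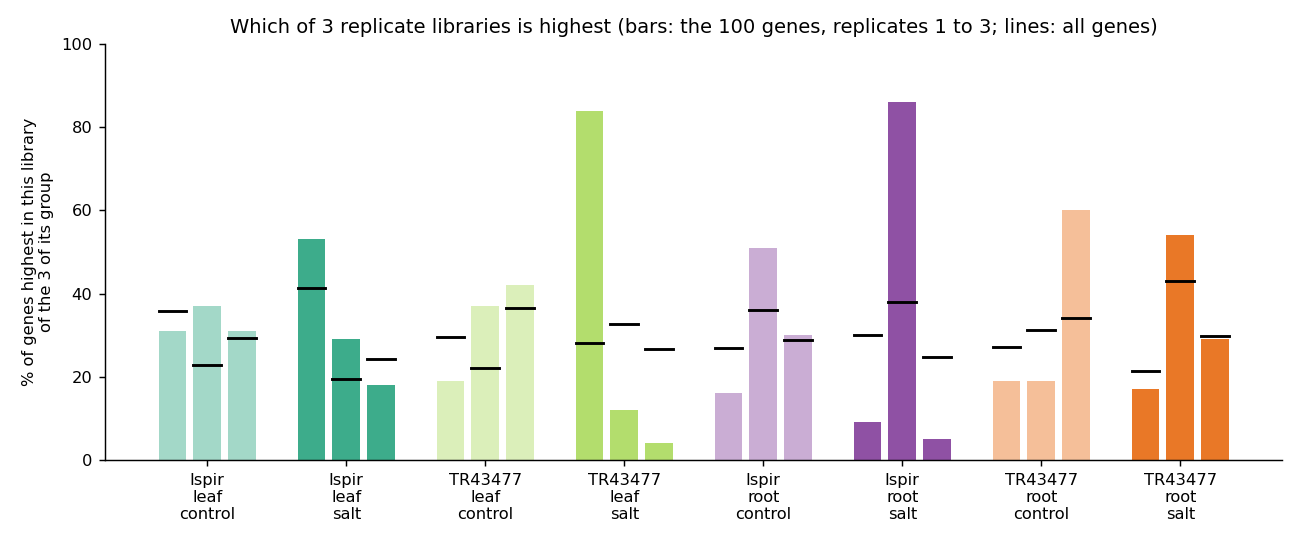
Share of genes that were highest in a given library of the 3 of its group, for the 100 genes (bars, replicates 1 to 3 from left to right) and for all genes with a count (black lines). The bars reach 86% in Ispir root salt replicate 2 and 84% in TR43477 leaf salt replicate 1, where the lines stand at 37.9% and 28.2%.

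The members were spread over the chromosomes. Chromosome 2 held 17 of them, beside 12.2% of all genes, chromosome 9 held 12, chromosome 1 held 11 and chromosome 11 held 4. Their gene models had a median span of 2385 bases, from 543 to 19472, against 3174 for all genes with a count, and none of them overlapped another model (0 members, beside 2.64% of genes). Phvul.002G332200 and Phvul.002G332300 were the only members within 5 genes of each other, with 163 bases between them on chromosome 2.

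These neighbours differed in tissue. Phvul.002G332200 was lower in leaf than in root of Ispir controls, at 0.738, 1.08 and 0.941 CPM against 16.1, 17.0 and 16.9 CPM (log2 -3.83, SE 0.24, adjusted p = 3.65e-05, edgeR), and its differences were 1.37 (IL), 1.98 (TL), 1.45 (IR) and 0.81 (TR). Phvul.002G332300 was low in the controls of all groups, 0.0751 to 2.99 CPM, and had its largest differences in leaf, where salt libraries ran from 17.3 to 34.4 CPM in Ispir and from 48.8 to 83.7 CPM in TR43477, with differences of 4.28 (IL), 4.76 (TL), 2.47 (IR) and 1.06 (TR). Without the rules for multiply mapped reads, counts shared between similar neighbours cannot be told apart.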

How the data were processed

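The deposited count values were whole reads per gene, not normalized, made by the authors from stranded poly(A) libraries with Trimmomatic, HISAT2 on the P. vulgaris genome v2.1 and SeqMonk. The rules for strand and for reads that map to several places are not given in the sources used here. The deposited p-value, FDR and log2 fold change columns hold the authors' own comparison and were not used. The 4 tables were joined by gene identifier, 27213 genes each, and groups were taken from the labels. As no batch is labelled, none was modelled.

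edgeR 4.0.16 in R 4.3.3 was run on each set of libraries for genes with 1 count or more, with TMM factors and the two-sided quasi-likelihood test, and p-values were adjusted by Benjamini-Hochberg over every gene of that fit. A call needed a log2 fold change beyond 1 in either direction with an adjusted p below 0.01. Salt and control levels were compared over 6 libraries and interactions over 12. SE is the absolute log2 value divided by the square root of F. The steps were tested on simulated data. p-values measure the spread between the 3 plants of a group.

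The members, lists and tests were chosen with earlier results of these data known. Named members are those with the largest minimum differences, those annotated by the study, up to 2 per comparison and direction of smallest adjusted p among those called, ranks next to the limit, and neighbours. Because identifiers have no names, at most 2 unannotated genes are printed per comparison and direction, and those with the highest level, the largest or the most even or uneven differences were chosen after their values were seen. Lists rest on words in the study's annotations, which cover few genes, so that lists by product name, promoter motifs and sequences were not analysed here (0 identifiers matched RefSeq). Alternatives were DESeq2 1.42.0, upper-quartile and total-count scaling, filterByExpr, an adjusted p of 0.05, a block for the replicate number, fits of 12 libraries for control contrasts, each library left out, and other constants, filters and centres for the choice of the 100.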

Additional observations from a re-analysis of the deposited data

Results flagged for a closer look

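The interaction tests themselves (edgeR's quasi-likelihood test, adjusted over all genes) gave 19 calls of differing responses over 15 members, and listed here are the 10 that belong to annotated members or have the smallest adjusted p of a comparison and direction (at most 2 each). The members were chosen on the same responses that these tests contrast. The p-values take no account of that choice, so the calls are a description. Between the genotypes in leaf, the response of Ispir was below that of TR43477 for Phvul.006G061500 (log2 -4.34, adjusted p = 5.68e-04), Phvul.009G212300 (log2 -2.37, adjusted p = 6.61e-04) and the 3-methyl-2-oxobutanoate dehydrogenase gene Phvul.009G132900 (log2 -5.97, adjusted p = 0.00797). Between the tissues of Ispir, the leaf response was above the root response for Phvul.003G042000 (log2 3.34, adjusted p = 0.0012) and below it for the sucrose gene Phvul.001G209600 (log2 -2.71, adjusted p = 0.00144) and Phvul.006G061500 (log2 -2.79, adjusted p = 0.00246). Between the tissues of TR43477, the leaf response was above the root response for Phvul.009G257000 (log2 4.78, adjusted p = 8.22e-05), Phvul.009G212300 (log2 2.901, adjusted p = 5.69e-04) and the 2-nitropropane dioxygenase-like gene Phvul.006G205400 (log2 2.27, adjusted p = 0.00992), and below it for Phvul.009G027600 (log2 -5.03, adjusted p = 0.00132). Of these calls, those of Phvul.009G132900 and Phvul.006G205400 were each lost in 11 of 18 other settings. Phvul.009G027600 was also called in Ispir, with the leaf response below the root response (log2 -3.15, adjusted p = 0.00382).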

How the results depend on the processing

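No named result changed sign under any alternative, and 18 of 24 kept their call under all of them. The 6 others are given with their values beside the results, for some of them from fits without 1 library only. Over all alternatives the call was lost in 8 of 13 settings for Phvul.006G061500 in control leaf. In control root it was lost in 5 of 13 for Phvul.003G237400 and 6 of 13 for Phvul.004G162100. Between control tissues of Ispir it was lost in 4 of 12 for Phvul.003G209000. Calls over all genes in the same fit are given after a slash. With DESeq2 the members called were 83 / 3127 in IL, 70 / 3620 in TL and 62 / 865 in TR. For the interactions they were 17 / 3320 (genotype, leaf), 3 / 254 (genotype, root), 14 / 2551 (tissue, Ispir) and 21 / 2438 (tissue, TR43477), and for controls 21 / 2180 (genotype, leaf), 9 / 1552 (genotype, root) and 49 / 8363 (tissue, TR43477). At an adjusted p under 0.05 edgeR called 82 / 3122 in IL and 41 / 475 in TR, 19 / 3521, 15 / 2779 and 21 / 2247 for the interactions in leaf, Ispir and TR43477, and 12 / 1150, 7 / 1377 and 53 / 8605 in the same control comparisons. Total-count scaling called 8 / 1638 for the genotype interaction in leaf, and filterByExpr 0 / 120 for control leaf. With all 12 libraries of a tissue or genotype in 1 fit, controls gave 18 / 1754 (genotype, leaf), 7 / 1073 (genotype, root) and 55 / 8717 (tissue, TR43477). The causes were not tested.

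Without 1 library at a time, the members called ran from 19 (without Ispir leaf salt replicate 2) to 50 in IL, from 4 (without any 1 salt library) to 64 in TL, from 22 (without Ispir root control replicate 1) to 73 in IR and from 0 to 50 in TR. The range was 2 to 11 for the genotype interaction in leaf (11 without TR43477 leaf control replicate 1), 0 to 0 in root, 3 to 7 for the tissue interaction in Ispir and 5 to 14 in TR43477. It was 0 to 0 for control leaf between genotypes, 0 to 3 for control root, 30 to 43 between control tissues in Ispir and 10 to 36 in TR43477. Genes called in all at the upper ends of the last 3 ranges were 663, 10020 and 6888.

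The labels do not tie the replicate numbers to shared plants, and no pair of groups had every same-numbered correlation above 0.1. With the replicate block the members called were 0 in TL, 0 in TR, 0 for the genotype in control leaf and 0 in control root, 9 for the tissue interaction in Ispir and 18 between control tissues in TR43477. The calls over all genes behind the counts of 0 are not given here, so nothing is read from those counts. Of the 100 genes, 92 were chosen again with TMM library sizes, 80 with a constant of 0.25, 71 with a constant of 5, 100 with a minimum mean of 10 counts, 80 with medians and 88 to 99 without 1 library. In every one of the 24 lists made without 1 library, 59 of the 100 were chosen. The annotated members Phvul.009G132900, Phvul.002G083600, Phvul.006G205400 and Phvul.010G133300 were not among these 59. Nor were the named members Phvul.006G061500, Phvul.009G027600, Phvul.002G332200, Phvul.002G180400 and Phvul.005G024100. With 3 libraries per group, calls moved with single libraries, and genes with few control counts have fitted sizes that depend on the count added.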
